A study of Mus musculus with 4 samples.

Results

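The genes described here are 10 non-clustered protocadherins, taken by symbol from 23435 genes measured in primary mouse oligodendrocytes: Pcdh17, Pcdh1, Pcdh7, Pcdh8, Pcdh9, Pcdh10, Pcdh15, Pcdh18, Pcdh19 and Pcdh20. Pcdh17 was included as the gene within which the long noncoding RNA lncOL1 lies. The study compared 2 lncOL1-/- samples with 2 control samples, whose shared genotype label lists lncOL1+/+ and lncOL1+/- and does not assign either to a sample. All 4 were of a mixed strain background, and all came from precursor cells kept for 1 day with the thyroid hormone T3, which starts oligodendrocyte differentiation in culture. Their total RNA was sequenced. The sources used here do not give how lncOL1 was deleted or in which cells, and do not state whether each sample was a culture or animal of its own. P-values therefore reflect the spread among these 4 samples alone, and that spread may be technical.

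Protocadherins are single-pass membrane proteins of the cadherin superfamily that bind their own kind on a neighbouring cell through extracellular cadherin repeats. The clustered ones are encoded side by side in 3 large arrays, whereas the genes treated here are scattered and grouped by their cytoplasmic tails. Pcdh1, Pcdh7 and Pcdh9 belong to the delta-1 group, whose tails bind protein phosphatase 1. Pcdh8, Pcdh10, Pcdh17, Pcdh18 and Pcdh19 belong to the delta-2 group, several of which recruit the actin-nucleating WAVE complex through its Nckap1 subunit. Pcdh20 is commonly placed apart from both groups. Pcdh15 is not a delta protocadherin: it is the tip-link protein of inner ear hair cells and is also widely used as a marker of oligodendrocyte precursors.

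lncOL1, listed in the files as 9630013A20Rik, is an antisense gene of the GENCODE annotation (mm10), on chromosome 14 from 84458639 to 84476424, minus strand. It lies in intron 1 of Pcdh17, which runs on the plus strand from 84443563 to 84539002. That intron spans 28.7 kb, and the lncOL1 start lies 32.9 kb downstream of the Pcdh17 start. None of its 18 annotated exons overlaps an exon of either the coding or the retained-intron transcript of Pcdh17. Since it is not stated whether counting used strand, unspliced reads of this pair cannot be told apart. Exons of an opposite-strand gene also overlap exons of Pcdh7, Pcdh8, Pcdh10 and Pcdh19. Of these partners, 4932441J04Rik at Pcdh7 averaged 0.479 FPKM and 1700027H10Rik at Pcdh10 averaged 0.0787 FPKM over the 4 libraries. The partners of Pcdh8 (Gm9748) and Pcdh19 (Gm26851) had no measured values, so their levels are unknown.

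The start regions of 4 genes are shown because the results turn on them: Pcdh17 as the host, lncOL1 as the deleted gene, and Pcdh15 and Pcdh10 as the members called in the authors' table. Each window covers 250 bases before and 50 bases after the RefSeq start (GRCm38.p6) and reads 5′ to 3′ on the gene's strand. They are chr14:84443313-84443612 (plus) for Pcdh17, chr14:84476375-84476674 (minus) for lncOL1, chr10:73821617-73821916 (plus) for Pcdh15 and chr3:45378148-45378447 (plus) for Pcdh10. Capitals mark CCAAT (the CCAAT box, or ATTGG on the other strand), TATAAA (the TATA box, or TTTATA) and CAGCTG (an E-box, the same on both strands), which overlap nowhere in these windows.
Pcdh17: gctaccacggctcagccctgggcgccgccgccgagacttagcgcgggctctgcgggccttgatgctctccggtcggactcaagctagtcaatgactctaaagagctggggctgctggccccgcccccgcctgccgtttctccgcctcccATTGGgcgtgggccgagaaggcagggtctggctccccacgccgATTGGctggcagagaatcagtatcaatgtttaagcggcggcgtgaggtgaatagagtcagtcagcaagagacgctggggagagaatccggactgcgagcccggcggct
lncOL1: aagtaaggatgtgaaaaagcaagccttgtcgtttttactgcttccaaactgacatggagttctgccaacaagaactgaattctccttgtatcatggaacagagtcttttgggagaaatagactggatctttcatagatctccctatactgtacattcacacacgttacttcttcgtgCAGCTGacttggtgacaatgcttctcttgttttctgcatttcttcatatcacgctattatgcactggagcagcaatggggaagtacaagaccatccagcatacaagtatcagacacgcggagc
Pcdh15: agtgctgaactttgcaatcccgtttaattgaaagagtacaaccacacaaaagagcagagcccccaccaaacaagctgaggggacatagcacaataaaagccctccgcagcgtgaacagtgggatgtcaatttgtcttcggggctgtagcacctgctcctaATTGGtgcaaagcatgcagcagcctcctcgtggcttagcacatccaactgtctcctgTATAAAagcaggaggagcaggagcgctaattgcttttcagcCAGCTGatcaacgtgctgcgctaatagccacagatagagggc
Pcdh10: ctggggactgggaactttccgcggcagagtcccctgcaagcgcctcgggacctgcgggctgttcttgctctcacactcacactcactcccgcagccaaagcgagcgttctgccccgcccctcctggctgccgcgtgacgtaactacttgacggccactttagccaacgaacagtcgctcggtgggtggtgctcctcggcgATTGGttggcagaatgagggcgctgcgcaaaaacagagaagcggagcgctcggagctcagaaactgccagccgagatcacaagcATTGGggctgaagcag

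Pcdh17 and Pcdh10 had CpG-rich windows with 26 and 24 CpG, above 83.1% and 80.0% of the 32851 windows in the table, and neither held TATAAA. The window of Pcdh15 had 8 CpG against a median of 7, with TATAAA beginning 33 bases before the start (position -33). GENCODE lists 41 transcripts of Pcdh15 and begins the gene further upstream, at 73099342, so this window need not be its only start. Pcdh8, whose tail binds the kinase Taok2 in rat neurons, was the other member with TATAAA, at position -30. This motif was in 13.6% of all windows. CCAAT was in the windows of 8 of the 9 members with one, at positions -101 and -58 in Pcdh17 and -50 and 34 in Pcdh10, against 37.4% of all windows. GGGCGG (the GC box, or CCGCCC) was in 4 members and 35.7% of all windows, and TGACG (or CGTCA) was in 2 members and 20.8% of all windows. CAGCTG was in Pcdh15 at position 8, in no other member, and in lncOL1 at position -73, against 16.3% of all windows. Pcdh1 had no window in the table. These motifs were picked after the sequences had been seen, and a match is a description of letters, not of factor binding.

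Levels are FPKM, fragments scaled to transcript length and library size, which allow genes to be set beside each other. The values used here hold no read counts, so the depth behind a value is unknown. Its precision is judged from the 2 libraries of a group and, in the fit, also from the spread of other genes. Summed FPKM lay between 373484 and 383128 per library. Across 11361 genes, which are not independent replicates, log2(FPKM + 1) correlated at 0.985 within each group and at 0.982 to 0.984 between groups. lncOL1 had 5.54 and 5.06 FPKM in the knockout libraries, against 28.9 and 34.0 FPKM in the control libraries. It fell by 2.36 on the log2 scale (SE 0.097), with an adjusted p of 0.000389 by limma, and both knockout libraries lay far below both control libraries.

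The protocadherins were expressed over a wide range, and the order was nearly the same in both groups. Pcdh10 was highest, with 60.3 and 59.2 FPKM in knockout libraries against 69.8 and 67.3 FPKM in control libraries, above 90.3% of the genes tested. Pcdh7, Pcdh17, Pcdh9 and Pcdh1 followed with means of 26.4, 24.9, 18.6 and 11.9 FPKM over the 4 libraries. Pcdh15, Pcdh19 and Pcdh8 averaged 3.46, 2.71 and 1.51 FPKM. Pcdh20, at 0.159 to 0.260 FPKM, and Pcdh18, at 0.0930 to 0.109 FPKM, stayed under the mean of 1 FPKM required for testing. No 2 neighbours in this order overlapped within either group. Pcdh15 and Pcdh19 alone stood in a different order in the groups. In knockout libraries Pcdh15, at 3.97 and 4.13 FPKM, was above Pcdh19, at 2.29 and 2.49 FPKM. In control libraries Pcdh15, at 2.89 and 2.84 FPKM, was below Pcdh19, at 3.07 and 3.002 FPKM.

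**Figure D1:**
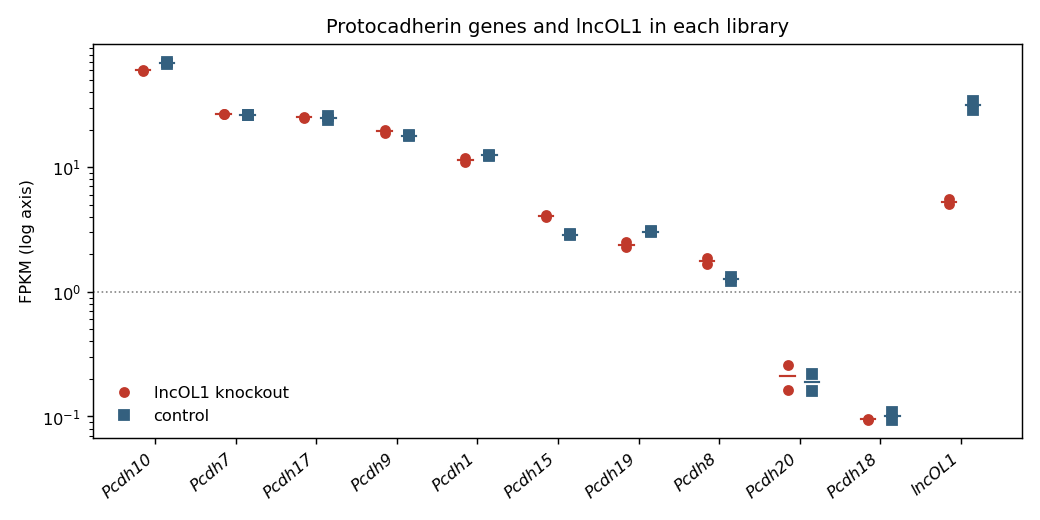
FPKM (log axis) of the 10 protocadherin genes and lncOL1 in the 2 lncOL1 knockout libraries (circles) and the 2 control libraries (squares), with group means as short lines and the filter of 1 FPKM dotted. Pcdh10 stands highest among the protocadherins, Pcdh18 and Pcdh20 lie below the filter, and only lncOL1 shows a gap between groups that is wide on this axis.

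Summed over the 10 genes, FPKM came to 151.9 and 149.9 in knockout libraries, against 157.8 and 156.7 in control libraries. Pcdh10 alone made up 39.7% and 39.5% of this sum in knockout libraries and 44.3% and 43.0% in control libraries. Pcdh17 made up 16.8% and 16.4% in knockout libraries and 15.2% and 16.3% in control libraries.

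No protocadherin passed the test of knockout against control. Of the 8 tested, 0 were called by limma (adjusted p under 0.05 over all genes tested), where 1.31% of all genes were called, 0.528% higher and 0.783% lower in the knockout. At an unadjusted p under 0.05 there were 4, namely Pcdh15 and Pcdh8 higher and Pcdh10 and Pcdh19 lower in the knockout, where 13.7% of all genes passed that mark, 7.13% higher and 6.58% lower. The libraries of the 2 groups did not overlap for 7 of the 8, with 4 higher and 3 lower in the knockout, against 43.4% of all genes tested, 22.6% higher and 20.7% lower. The median log2 fold change of the 8 was 0.03, against 0.005 over all genes tested. An exact permutation test of 2 against 2 libraries cannot give a two-sided p below 0.333, so single genes were judged by the fit across all genes. The limma fold changes were computed from log2(FPKM + 1) unless another pseudocount is named, so those of genes with low values come out too small. Fold changes in the authors' deposited table are ratios of pooled FPKM without the added 1, a different measure. In bulk RNA, fewer cells of a type and less RNA per cell cannot be told apart.

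**Figure D2:**
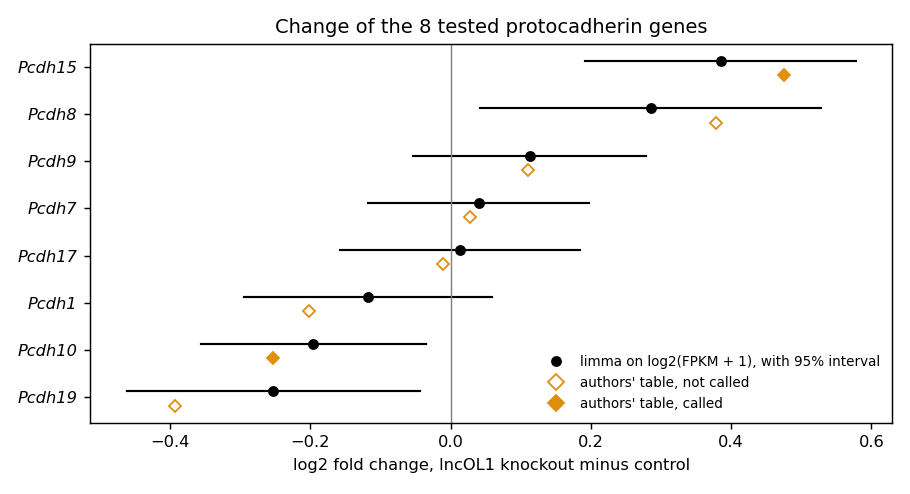
Log2 fold change, lncOL1 knockout minus control, of the 8 tested protocadherin genes by limma (circles, with 95% confidence intervals) and in the authors' deposited table (diamonds, filled where called). The limma intervals of Pcdh15, Pcdh8, Pcdh10 and Pcdh19 leave out 0 before adjustment, and that of Pcdh17 is centred close to 0.

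Pcdh17, the host gene, is a delta-2 member known in mice for presynaptic assembly and axon outgrowth. It had 25.5 and 24.6 FPKM in the knockout libraries, against 24.01 and 25.6 FPKM in the control libraries. The control values enclosed both knockout values. Its log2 fold change was 0.013 with a 95% confidence interval of -0.16 to 0.18, which corresponds to ratios of 0.896 to 1.14 (limma adjusted p = 0.968). Its sign turned with the library left out, with -0.032 without control replicate 1 and -0.012 without lncOL1 knockout replicate 1, and 0.057 without control replicate 2. lncOL1 stood at 0.212 times the mean FPKM of its host in the knockout, against 1.27 times in control. The authors' deposited table gives 23.7 FPKM in knockout and 23.9 FPKM in control for Pcdh17 (log2 fold change -0.01, q = 0.990), opposite in sign to the limma value.

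Pcdh15 had the largest log2 fold change of the 8 in either direction, with 3.97 and 4.13 FPKM in the knockout libraries against 2.89 and 2.84 FPKM in the control libraries. Both knockout libraries lay above both control libraries, and the mean was 41.3% higher. The log2 fold change was 0.38 (SE 0.081, 95% interval 0.19 to 0.58), and its limma adjusted p of 0.0932 missed the threshold. Over 13 alternative settings the log2 fold change lay between 0.36 and 0.48 and the limma adjusted p between 0.0755 and 0.363. The authors' deposited table calls Pcdh15 higher, with a log2 fold change of 0.48 and q = 0.0135. Of the 10 genes of the hair cell tip-link complex in which Pcdh15 works, 3 were tested (Cib2, Tmie and Whrn), with a median log2 fold change of 0.12. By limma 0 of the 3 were called, where 1.31% of all genes were, and 0 had p under 0.05 before adjustment, where 13.7% had. Cib2, a calcium-binding protein, had 7.27 and 9.48 FPKM in knockout and 7.75 and 7.36 FPKM in control libraries, which overlapped. Whrn, a scaffold protein, had a log2 fold change of 0.13, and Tmie, a subunit of the hair cell channel, had one of -0.20 (limma adjusted p = 0.729 and 0.486).

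Pcdh10, first described as OL-protocadherin and known for binding Nckap1, had lower values in the knockout. The values given above do not overlap between groups, and the knockout mean of 59.7 ± 0.735 FPKM was lower than the control mean of 68.6 ± 1.76 FPKM (SD, n = 2 each). The log2 fold change was -0.20 (SE 0.067, 95% interval -0.36 to -0.04, limma adjusted p = 0.264). The authors' deposited table calls it lower, with a log2 fold change of -0.25 and q = 0.0278. Pcdh10 and Pcdh15 were the only members called there, 2 of the 8 tested, where 5.78% of the 12519 genes tested by the authors were called, 1.74% higher and 4.04% lower.

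Pcdh19, the X-linked delta-2 member whose human counterpart is mutated in an epilepsy of girls, had 2.29 and 2.49 FPKM in the knockout libraries, against 3.07 and 3.002 FPKM in the control libraries. Both knockout values were below both control values, with a log2 fold change of -0.25 (SE 0.087, 95% interval -0.46 to -0.04, limma adjusted p = 0.270). The authors' deposited table gives -0.39 with q = 0.131. Pcdh8, the paraxial protocadherin of the early embryo, had 1.85 and 1.66 FPKM in the knockout libraries, against 1.31 and 1.21 FPKM in the control libraries. The groups did not overlap, and the log2 fold change was 0.29 (SE 0.102, 95% interval 0.04 to 0.53, limma adjusted p = 0.282), or 0.45 with a pseudocount of 0.1 in place of 1. For Pcdh8 the authors' deposited table gives 0.38 with q = 0.803.

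The 3 delta-1 members had log2 fold changes between -0.12 and 0.11. Pcdh7, which binds protein phosphatase 1, had 26.8 and 26.8 FPKM in the knockout libraries against 26.0 and 26.1 FPKM in the control libraries, a difference in means of 2.91%. These narrow groups did not overlap, yet the limma interval was -0.12 to 0.20 on the log2 scale (adjusted p = 0.874). The fit takes part of its spread from other genes, so this interval is wider than these groups alone would give. Pcdh9, which is abundant in the oligodendrocyte lineage, had 19.9 and 18.9 FPKM in knockout libraries and 17.8 and 17.98 FPKM in control libraries. Its log2 fold change was 0.11 with an interval of -0.05 to 0.28 (limma adjusted p = 0.558). Pcdh1, known from airway epithelium, had 10.9 and 11.9 FPKM in knockout libraries and 12.5 and 12.4 FPKM in control libraries. Its log2 fold change of -0.12 had an interval of -0.29 to 0.06 (limma adjusted p = 0.570) and was -0.06 without lncOL1 knockout replicate 1.

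Pcdh18 and Pcdh20 were near the lower end of what was listed. Pcdh18 had 0.0962 and 0.0941 FPKM in knockout libraries and 0.109 and 0.0930 FPKM in control libraries. Pcdh20 had 0.260 and 0.163 FPKM in knockout libraries and 0.221 and 0.159 FPKM in control libraries. Both genes overlapped between groups. With no filter on low values their limma adjusted p was 0.953 and 0.914 over 17397 genes, and the authors' deposited table marks both as not tested.

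Pcdh8, Pcdh17, Pcdh20 and Pcdh9 all lie on chromosome 14 within 10 Mb of lncOL1. Pcdh8 lies 4.69 Mb towards lower coordinates, and Pcdh20 and Pcdh9 lie 3.99 Mb and 8.54 Mb towards higher coordinates. Of 62 genes in this stretch besides lncOL1, 32 passed the filter. By limma 0 of these were called, where 1.31% of all genes were. Pcdh8 was the 1 gene with p under 0.05 before adjustment, where 13.7% of all genes passed that mark. Their median log2 fold change was 0.01. The other 6 members lie on chromosomes 3 (Pcdh10 and Pcdh18), 5 (Pcdh7), 10 (Pcdh15), 18 (Pcdh1) and X (Pcdh19).

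**Figure D3:**
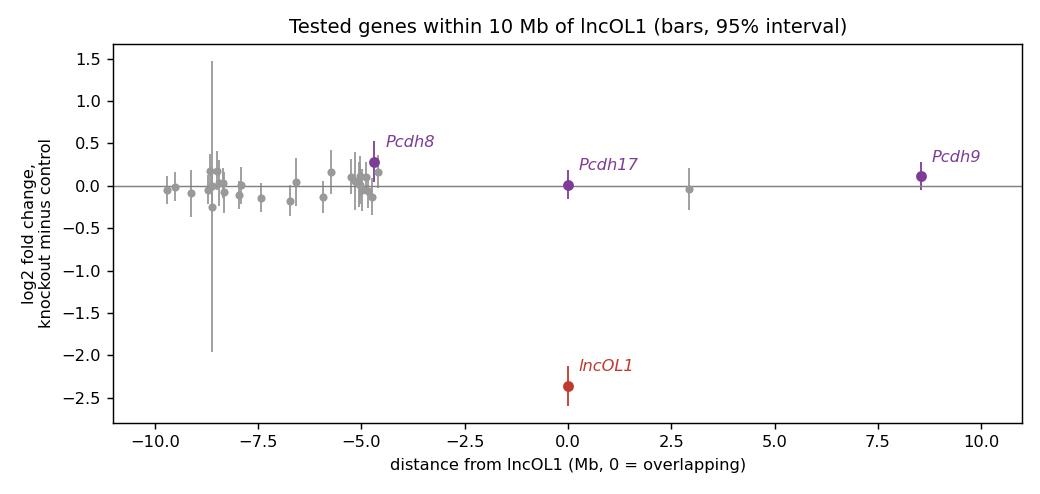
Log2 fold change, lncOL1 knockout minus control, with 95% confidence intervals, of the tested genes of chromosome 14 by their distance from lncOL1 in Mb. Pcdh17 at distance 0 and Pcdh9 sit close to 0, Pcdh8 is at 0.29, and lncOL1 at -2.36 stands alone.

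Related adhesion genes were set beside the 8, from lists chosen with earlier results of these data known. All 58 clustered protocadherins were measured and 46 tested. Of these 0 were called by limma, where 1.31% of all genes were, and 0 by the authors' table, where 5.78% were. Their median log2 fold change was -0.07. Before adjustment, 2 were higher and 6 lower in the knockout with p under 0.05, where 7.13% of all genes were higher and 6.58% lower. The groups did not overlap for 4 that were higher and 21 that were lower, where 22.6% of all genes were higher and 20.7% lower without overlap. Their genes share exons or near-identical sequence, so the division of reads among them is uncertain. Pcdhgc3, the most abundant, had 163 and 172 FPKM in knockout libraries against 144 and 145 FPKM in control libraries (log2 fold change 0.21, limma adjusted p = 0.241). Pcdhga7, next in level, had a log2 fold change of -0.07. Pcdhb14, at 2.63 and 2.55 FPKM in knockout and 3.59 and 3.65 FPKM in control libraries, had the smallest p of the list (log2 fold change -0.37, limma adjusted p = 0.109), followed by Pcdhb10 at -0.30.

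Other non-clustered protocadherins and large cadherins gave 9 tested genes with a median log2 fold change of 0.02. By limma 0 were called, where 1.31% of all genes were. Before adjustment 1 reached p under 0.05, higher in the knockout as were 7.13% of all genes. That gene was Celsr3, a planar polarity cadherin, with 1.81 and 2.10 FPKM in knockout against 1.51 and 1.46 FPKM in control libraries (log2 fold change 0.25, limma adjusted p = 0.353). Fat1 and Clstn1, the most abundant of this list, both had log2 fold changes of -0.07, and Fat4 had one of -0.15. Among classical and type II cadherins 9 were tested and 0 were called by limma, where 1.31% of all genes were. Before adjustment 2 reached p under 0.05, both lower in the knockout, as were 6.58% of all genes. These were Cdh20, with 23.2 and 19.9 FPKM in knockout against 26.3 and 25.9 FPKM in control libraries (log2 fold change -0.27, limma adjusted p = 0.248), and Cdh11, with a log2 fold change of -0.19. The list's median log2 fold change was -0.005. The authors' deposited table calls Cdh20 and Cdh11 lower (q = 0.00433 and 0.0454), as it does 4.04% of the genes it tested. Cdh2, N-cadherin and the most abundant of them, had a log2 fold change of -0.14 (limma adjusted p = 0.472).

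All 21 cytoplasmic partners of protocadherins passed the filter, among them the WAVE complex, protein phosphatase 1, catenins and Mapk14. By limma 0 were called, where 1.31% of all genes were, and 0 reached p under 0.05 before adjustment, where 13.7% did. The authors' table called 0 of the 20 it tested, against 5.78% of all genes it tested. The groups did not overlap for 5 that were higher and 5 that were lower, where 22.6% and 20.7% of all genes were. The 21 partners had log2 fold changes between -0.14 and 0.16, with a median of -0.02. Rac1, the GTPase that activates the WAVE complex, had 346.9 and 355.0 FPKM in knockout and 343.3 and 386.0 FPKM in control libraries. Cyfip2, a WAVE subunit, had a log2 fold change of 0.09 and the alpha catenin gene Ctnna2 of -0.14. Mapk14, the p38 kinase, had one of 0.14.

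**Figure D4:**
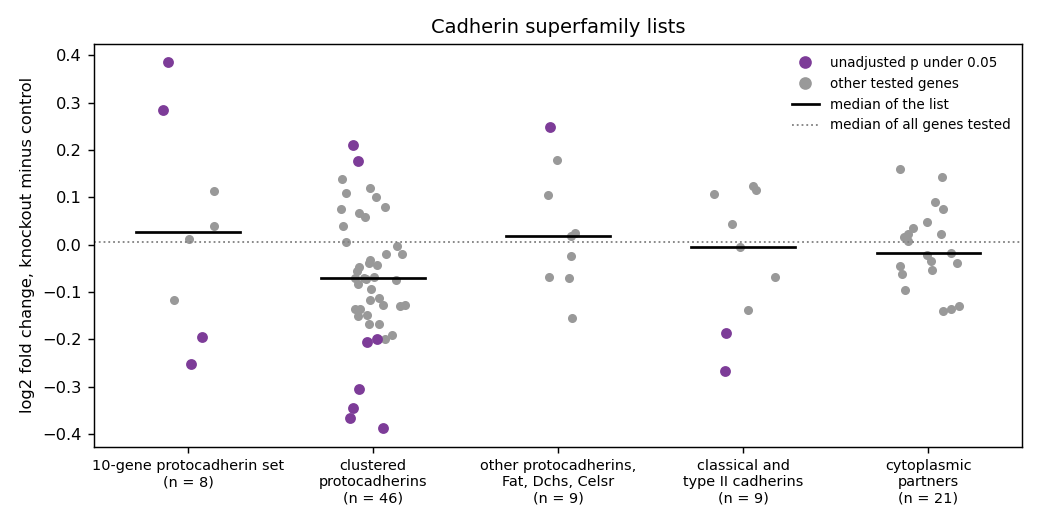
Log2 fold change, lncOL1 knockout minus control, of every tested gene in the 10-gene protocadherin set and 4 related lists, with list medians as bars, genes at an unadjusted p under 0.05 coloured, and the median of all genes tested dotted. The medians of the 5 lists lie between -0.07 and 0.03.

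Over the 4 libraries the genes with a pattern most like that of Pcdh17 were Man2a1, Ndufa4 and Nudcd1, with Pearson r of log2(FPKM + 1) of at least 0.999. For Pcdh15 they were Pou6f1, Evc2 and Nhsl1. With 4 libraries 200 genes reached r of 0.95 with Pcdh17 and 580 with Pcdh15 among 11353 compared, and lncOL1 itself had r of -0.0994 with Pcdh17 and -0.998 with Pcdh15. All points share the same 4 libraries, so these values only describe them.

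Cell type markers were read beside the members. The lineage genes Olig1, Olig2 and Sox10 were at 253 FPKM or more in every library, as the oligodendrocyte label requires. Markers of oligodendrocyte precursors, the cells Pcdh15 is known from, had 0 of 5 called by limma, where 1.31% of all genes were. Their summed FPKM, with Tnr the largest part, was 566 and 550 in knockout against 530 and 548 in control libraries. Without overlap, 2 were higher and 1 lower, where 22.6% of all genes were higher and 20.7% lower. Cspg4 had a log2 fold change of 0.26 and Pdgfra one of -0.16 (limma adjusted p = 0.273 and 0.397). The summed FPKM of 6 myelin genes was 5728 and 5903 in knockout against 7512 and 7777 in control libraries. Of the 6, only Mbp was called by limma, lower in the knockout, as were 0.783% of all genes. Of 5 genes of newly formed oligodendrocytes, 1 was called, Tmem2, which was lower, as were 0.783% of all genes. The summed FPKM of the 5 was 2825 and 2619 in knockout against 2740 and 2587 in control libraries. Their median log2 fold change was 0.05. Without overlap, 1 was higher (Gpr17) and 2 lower (Tmem2 and Enpp6), where 22.6% of all genes were higher and 20.7% lower. The 9 microglia markers had a summed FPKM of 24.4 and 30.3 in knockout against 11.001 and 12.5 in control libraries. Of the 6 tested, 3 were called higher by limma, where 0.528% of all genes were, and all 6 were higher without overlap, where 22.6% of all genes were. The other 3, below the filter, were also higher without overlap. None of the 9 was at 0 in all libraries. Neuronal markers, from cells rich in protocadherins, summed to 29.9 and 31.1 FPKM in knockout and 31.0 and 30.3 FPKM in control libraries, of which Tubb3 made up at least 27.1 FPKM in each. The 7 astrocyte markers summed to 531 and 511 FPKM in knockout and 569 and 537 FPKM in control libraries. By limma 0 were called, where 1.31% of all genes were. Before adjustment 2 were lower with p under 0.05, as were 6.58% of all genes. All 7 log2 fold changes were negative, with a median of -0.12. The authors' deposited table calls 3 of the 7 lower, as it does 4.04% of the genes it tested. These were Gfap (q = 0.0408), Slc1a2 (q = 7.95e-05) and Gja1 (q = 0.0159). None of the 5 endothelial markers reached the filter, with Cldn5 at 0 in 3 libraries. Of the 7 mural and fibroblast markers only Acta2 did, at 3.07 and 3.32 FPKM in knockout against 1.15 and 1.72 FPKM in control libraries. It was called higher (limma adjusted p = 0.0488), as were 0.528% of all genes. Of the other 6, all under 1 FPKM, 5 were lower in the knockout without overlap, where 20.7% of the genes tested were. These were Pdgfrb, Col1a1, Col3a1, Dcn and Lum, and Rgs5 overlapped. Col1a1, the most abundant of these, had 0.522 and 0.274 FPKM in knockout against 0.592 and 0.688 FPKM in control libraries. The part of these cells in the values of Pcdh15, Pcdh8, Pcdh10 and Pcdh19 was not tested.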

How the data were processed

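Each of the 4 samples has a deposited table of gene FPKM, computed by the authors. CASAVA, TopHat, Cufflinks and Cuffdiff, with the build mm10, appear in the submitters' processing notes. No source used here gives the annotation or strand setting. The authors also deposited a Cuffdiff comparison, with a pooled FPKM per group, p-values, q-values and, as scores, a test statistic and a log2 fold change (with placeholders where a group is at 0), per the file headers.

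Rows of the same symbol were summed and 9 symbols whose status was not OK were dropped. FPKM are not counts, so limma 3.58.1 (R 4.3.3) was run on log2(FPKM + 1) for the 11361 genes whose mean reached 1 FPKM (eBayes with trend, no covariate, 2 residual and 4.6 prior degrees of freedom), with Benjamini-Hochberg adjustment over all of them. The fit was tested on simulated data. lncOL1 was identified by its synonym in the RefSeq gene table. Positions are 1-based.

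The members, lists, motifs and tests were chosen with earlier results of these data known. Named genes are the 10 members, lncOL1, the 2 most abundant and 2 of smallest p in each list, the 2 most abundant markers per cell type, and the 3 nearest in pattern to Pcdh17 and Pcdh15. Other markers and the opposite-strand genes were named after their values were seen. Alternatives were other pseudocounts, filters and scalings, no trend, a replicate block, the highest row per symbol, and each library left out.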

Additional observations from a re-analysis of the deposited data

How the results depend on the processing

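Over 13 alternatives none of the 8 tested members was called by limma and lncOL1 was called in each (adjusted p 4.21e-06 to 0.0229). The sign of Pcdh17 turned without control replicate 1 (-0.032) and without lncOL1 knockout replicate 1 (-0.012), with a range of -0.032 to 0.057 as each library was left out, and its adjusted p was 0.913 to 0.974 over the alternatives; the other 7 members kept their sign in each. Counts over all genes, 60 higher and 89 lower, moved more: 1 higher and 3 lower with no filter, 11 to 16 higher and 5 to 26 lower with each library left out, which also leaves 1 library in a group, assumed to vary like the others. With the replicate number of the labels as a block, 158 were higher and 183 lower, still with 0 members called. The labels do not say what a number stands for, and same-numbered libraries of the 2 groups deviated with a correlation of -0.05 across genes, so the libraries were not treated as paired. Read counts are not in the files used here, so precision rests on 2 libraries per group and, in the fit, on the spread of other genes.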

Other observations

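The pooled FPKM of the authors' deposited table lay outside the range of the 2 libraries of its group for most genes: for 76.3% in knockout and 72.3% in control. The median ratio of pooled to mean library FPKM was near 1 (0.999 in knockout and 1.03 in control), but for Pcdh8 it was 0.634 in knockout and 0.679 in control, and for Pcdh10 0.810 in knockout and 0.841 in control. The authors' deposited table thus gives Pcdh8 at 1.11 FPKM in knockout and 0.856 FPKM in control, and Pcdh10 at 48.4 FPKM in knockout and 57.7 FPKM in control. Both genes had the same direction in both sources. The cause of the shift was not tested.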
